A study of Mus musculus with 12 samples.

Results

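Monocytes and tissue macrophages were followed in mouse gingiva through 9 genes that are widely used as their markers: Csf1r, Adgre1, Cd68, Lyz2, Ly6c2, Cx3cr1, Mrc1, Cd163 and Ms4a7. They were chosen by symbol among the 21965 genes of the count table, and all 9 were found there and passed the filter on low counts that left 15046 genes for testing. No threshold on a measured value entered the choice. The list was however drawn up with earlier results of these libraries known, and since it is not recorded which of them weighed in, every level and contrast of these libraries counts as used. The tests and counts below therefore describe the members and are no independent evidence for their direction. The study compared wild-type C57BL/6 mice (WT, C57BL/6J in the study's methods) with mice labelled Cybb-/- (CybbKO), in which the gene for the Nox2 subunit of the phagocyte NADPH oxidase is disrupted in every cell, either unligated (naive) or with a silk thread around an upper molar for 8 days (ligated). All mice were under 12 weeks old by the labels, and each of the 4 groups had 3 libraries of whole gingival tissue.

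Monocytes leave the blood and enter inflamed tissue, where they can become macrophages, while other macrophages reside in the tissue before any injury. Both depend on signals through the CSF1 receptor, and both engulf microbes and dead cells. In the gingiva they stand beside neutrophils at a barrier that is constantly exposed to oral bacteria, and precursors of this lineage also give rise to the osteoclasts that resorb alveolar bone. No gene of the list is restricted to 1 cell state, and in whole tissue fewer cells of a type and less RNA per cell cannot be told apart.

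Total counts ran from 27958819 to 42613423 per library, and markers of oral epithelium were abundant in all 12 libraries, at a summed level of 69468 to 129135 CPM (a gene's reads scaled by the library's total count after TMM normalization). The targeted gene went against its label. Cybb stood at 5.06 ± 0.758 CPM (SD, n = 3) in WT naive and 12.1 ± 3.43 CPM in WT ligated tissue, against 47.9 ± 7.56 CPM and 57.0 ± 6.31 CPM in the libraries labelled CybbKO. Gene-level counts cannot tell an intact transcript from a disrupted one, so these libraries keep the name of their label throughout. Nothing in the labels says that the libraries of a group came from separate animals, so p-values measure the spread between these libraries, which may be technical. Differences below are log2 fold changes from edgeR's quasi-likelihood test in a joint fit of the 12 libraries, with p-values adjusted over the 15046 genes by the Benjamini-Hochberg method, and a gene is called where the adjusted p is under 0.05.

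The stretch before each gene's start was read for the core of PU.1, the factor encoded by Spi1 that marks the myeloid lineage, and of the C/EBP factors. RefSeq windows of 250 bases on GRCm38.p6 were given for 7 of the 9 members. GAGGAA, on either strand, lies in 23.3% of all 32851 such windows, and the C/EBP core TTGCNNAA in 9.56%. Of the members, Cd68, Mrc1 and Ly6c2 hold the first, Cd68 also holds the second, and Lyz2, Cx3cr1, Cd163 and Ms4a7 hold neither. Ly6c2 has 2 overlapping windows, of which the first holds 1 match, 108 bases before the start, and the second, not shown, holds 2, at 142 and 8 bases. A window with a match of each of the 3 genes and that of Cd163, the 1 member that did not rise, are shown 5′ to 3′ on the gene's strand, with matches in capitals. They are chr11:69666171-69666420 on the minus strand for Cd68, chr2:14229164-14229413 on the plus strand for Mrc1, chr15:75111972-75112221 on the minus strand for the first Ly6c2 window, and chr6:124304401-124304650 on the plus strand for Cd163.
Cd68: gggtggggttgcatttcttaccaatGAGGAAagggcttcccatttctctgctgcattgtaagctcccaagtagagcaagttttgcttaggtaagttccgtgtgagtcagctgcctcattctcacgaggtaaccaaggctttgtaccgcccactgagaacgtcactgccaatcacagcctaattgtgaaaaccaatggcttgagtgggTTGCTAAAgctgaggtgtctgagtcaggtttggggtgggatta
Mrc1: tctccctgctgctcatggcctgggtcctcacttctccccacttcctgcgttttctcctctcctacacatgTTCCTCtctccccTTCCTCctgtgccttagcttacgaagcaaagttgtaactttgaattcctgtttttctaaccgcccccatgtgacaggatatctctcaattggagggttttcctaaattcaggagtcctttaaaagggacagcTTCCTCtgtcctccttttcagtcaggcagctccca
Ly6c2: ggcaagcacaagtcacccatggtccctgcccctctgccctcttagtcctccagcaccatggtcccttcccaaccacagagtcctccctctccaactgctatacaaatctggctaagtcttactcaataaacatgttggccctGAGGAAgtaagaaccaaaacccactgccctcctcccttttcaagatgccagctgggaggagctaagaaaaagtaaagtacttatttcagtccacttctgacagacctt
Cd163: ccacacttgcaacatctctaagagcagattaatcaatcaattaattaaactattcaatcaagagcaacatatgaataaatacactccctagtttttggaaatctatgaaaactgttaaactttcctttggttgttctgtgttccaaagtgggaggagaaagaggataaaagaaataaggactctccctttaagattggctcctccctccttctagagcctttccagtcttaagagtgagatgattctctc
In the Mrc1 window the 3 matches are read on the opposite strand and begin 180, 167 and 35 bases before the start. A match is a run of letters and not a bound site. Members with and without a match are found among those that rose after ligature.

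Ligature raised most of the list. With both genotypes averaged, 8 of the 9 members were called higher, where 14.7% of all tested genes were, and 7 had every ligated library above every naive one, where 6.73% of all genes did. Their median change was 1.37 on the log2 scale, against -0.03 over all tested genes. In WT tissue 4 members were called higher (Csf1r, Adgre1, Cx3cr1 and Ms4a7), beside 2.31% of all genes, and in the libraries labelled CybbKO the same 4 and also Cd68, Lyz2, Ly6c2 and Mrc1, beside 9.95%. Cd163 was the exception, with lower means in ligated tissue of both genotypes.

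**Figure D1:**
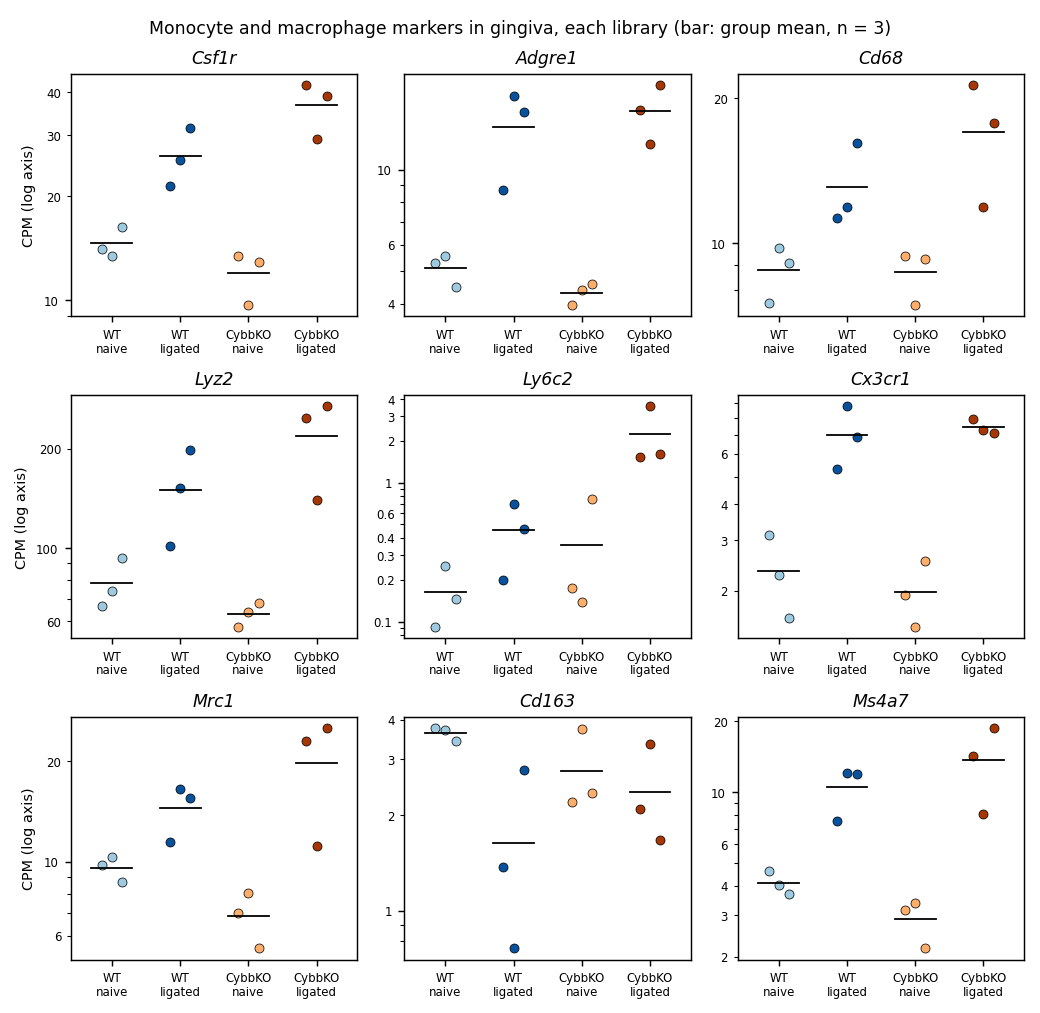
Level of each of the 9 genes in CPM on a log axis, 1 point per library and a bar at the mean of 3 libraries, for WT naive, WT ligated, CybbKO naive and CybbKO ligated tissue. In 7 genes every ligated library lies above every naive one, Ly6c2 stands highest in the ligated CybbKO libraries, and Cd163 is highest on average in WT naive tissue.

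Csf1r (ENSMUSG00000024621, chromosome 18) encodes the receptor for CSF1 and IL-34, on which the survival of macrophages depends. It stood at 14, 13.4 and 16.3 CPM in the WT naive libraries and at 21.4, 25.5 and 31.4 CPM in the WT ligated ones. The libraries labelled CybbKO had 13.4, 9.65 and 12.9 CPM when naive and 42.0, 29.3 and 38.9 CPM when ligated. No ligated library fell as low as any naive one. The rise was 0.84 ± 0.19 (log2, SE; edgeR adjusted p = 0.0405) in WT and 1.62 ± 0.19 (adjusted p = 0.00185) in CybbKO tissue. The WT call was not kept in 8 of the 12 fits that left out 1 library, with log2 fold changes of 0.68 to 1.0 and adjusted p from 0.0211 to 0.164 over all 12. In 4 of these 8 the library left out was a CybbKO one, and the WT change stayed at 0.84. The fit to the compared groups alone did not call it either (0.84, adjusted p = 0.0610). The CybbKO call was kept in all 12.

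Adgre1 (ENSMUSG00000004730, chromosome 17, 57358691 to 57483527 on GRCm38, plus strand) encodes F4/80, the classic surface antigen of mouse macrophages. Naive libraries held 5.30, 5.53 and 4.48 CPM in WT and 3.95, 4.38 and 4.57 CPM in CybbKO. After ligature the values were 8.71, 16.6 and 14.8 CPM in WT and 15.1, 11.9 and 17.9 CPM in CybbKO. The ligated libraries again lay clear of the naive ones, with WT replicate 1 the lowest of them. Adgre1 rose by 1.39 ± 0.24 in WT (edgeR adjusted p = 0.0165) and by 1.80 ± 0.24 in CybbKO (adjusted p = 0.00207). Leaving out WT ligated replicate 2 or 3, or WT naive replicate 1 or 2, ended the WT call, with adjusted p from 0.0556 to 0.0781.

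Cd68 (ENSMUSG00000018774, chromosome 11, 69664213 to 69666153, minus strand) encodes a glycoprotein of late endosomes and lysosomes, the compartments in which macrophages digest what they engulf. WT libraries had 7.52, 9.77 and 9.11 CPM when naive and 11.3, 11.9 and 16.2 CPM when ligated. In CybbKO libraries the levels were 9.44, 7.43 and 9.27 CPM before and 21.4, 11.9 and 17.8 CPM after ligature. Ligated libraries did not overlap with naive ones, yet this was the smallest rise among the 8 members whose averaged change was called, at 0.77 ± 0.16 (edgeR adjusted p = 0.00579). Within the genotypes it was 0.97 ± 0.23 in CybbKO (adjusted p = 0.0180) and 0.58 ± 0.23 in WT, which was not called (adjusted p = 0.186). The CybbKO call was lost without CybbKO ligated replicate 1 (0.77, adjusted p = 0.0888) or replicate 3 (0.93, adjusted p = 0.0644), or without CybbKO naive replicate 2 (0.86, adjusted p = 0.0690).

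Lyz2 and Ly6c2 were grouped as members shared with other cells, which does not mean that the other members are confined to the lineage. Lyz2 (ENSMUSG00000069516, chromosome 10, 117277331 to 117282321, minus strand) encodes lysozyme M, which cuts bacterial cell walls and is made by macrophages and by neutrophils. Its naive levels were 67.0, 74.3 and 93.7 CPM in WT and 57.7, 64.3 and 68.0 CPM in CybbKO libraries. Its ligated levels were 101, 152 and 198 CPM in WT and 247, 140 and 269 CPM in CybbKO libraries. Every ligated library exceeded every naive one, though by little for WT ligated replicate 1. The change was called in CybbKO (1.79 ± 0.27, edgeR adjusted p = 0.00276) and not in WT (0.94 ± 0.26, adjusted p = 0.0769), where DESeq2 did call it (adjusted p = 0.0162). Lyz1, the neighbouring copy that shares 5.96% of the 75-base stretches of Lyz2, changed by -1.0 ± 0.30 over both genotypes (adjusted p = 0.0313), opposite in sign to Lyz2.

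Ly6c2 (ENSMUSG00000022584, chromosome 15, 75108158 to 75111970, minus strand) encodes the Ly6C antigen that marks newly arrived inflammatory monocytes. It had few reads, with 3, 8 and 4 in the WT naive and 8, 27 and 18 in the WT ligated libraries, or 0.0914, 0.253 and 0.146 against 0.199, 0.706 and 0.467 CPM. CybbKO naive libraries had 6, 5 and 25 reads and CybbKO ligated ones 59, 133 and 70, which is 0.173, 0.139 and 0.762 against 1.54, 3.56 and 1.60 CPM. WT naive and WT ligated tissue overlapped, while the 3 CybbKO ligated libraries lay above the other 9. The rise in CybbKO tissue was 2.64 ± 0.66 (edgeR adjusted p = 0.0227), a call that was lost when CybbKO naive replicate 1 (2.31, adjusted p = 0.0841) or replicate 2 (2.25, adjusted p = 0.0805) was dropped. Over the fits that left out 1 library this rise ran from 2.14, without CybbKO ligated replicate 2, to 3.81, without CybbKO naive replicate 3. In WT the change of 1.46 ± 0.75 was not called (adjusted p = 0.306).

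Ly6c2 shares 9.46% of its 75-base stretches with Ly6c1, its endothelial copy on the same chromosome, so how reads from those stretches were divided is uncertain. Ly6c1 stood at 38 ± 2.54 CPM in WT naive, 45.4 ± 16.4 in WT ligated, 44.7 ± 6.10 in CybbKO naive and 81.8 ± 11.4 in CybbKO ligated tissue (SD, n = 3). It too rose with ligature in CybbKO libraries (0.87 ± 0.22, edgeR adjusted p = 0.0248), and in WT its change of 0.26 ± 0.22 was not called (adjusted p = 0.560). Whether Ly6c1 reads contributed to the Ly6c2 counts was not tested. Of the other members Lyz2 alone shares such stretches with another gene.

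Cx3cr1 (ENSMUSG00000052336, chromosome 9, 119901616 to 120069879, minus strand) encodes the fractalkine receptor of patrolling monocytes and many resident macrophages. WT naive libraries held 3.14, 2.28 and 1.60 CPM and WT ligated ones 5.33, 8.79 and 6.88 CPM. CybbKO libraries rose from 1.93, 1.5 and 2.53 CPM to 7.94, 7.27 and 7.10 CPM. The naive and ligated libraries were well apart, and the CybbKO ligated ones lay close together. The changes were 1.58 ± 0.29 in WT (edgeR adjusted p = 0.0199) and 1.90 ± 0.29 in CybbKO tissue (adjusted p = 0.00279). The WT call ended without WT ligated replicate 2 or 3 or WT naive replicate 2, with adjusted p from 0.0587 to 0.0948, and in the fit to the compared groups alone (adjusted p = 0.0532).

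Ms4a7 (ENSMUSG00000024672, chromosome 19, 11321039 to 11336146, minus strand) encodes a membrane-spanning protein found mainly on macrophages. Its naive levels were 4.63, 4.02 and 3.68 CPM in WT and 3.15, 3.38 and 2.17 CPM in CybbKO. After ligature WT libraries had 7.54, 12.1 and 12.0 CPM and CybbKO libraries 14.3, 8.05 and 18.8 CPM. All ligated libraries were higher, and the 3 CybbKO naive ones were the lowest. Ms4a7 rose by 1.36 ± 0.31 in WT (edgeR adjusted p = 0.0400) and by 2.24 ± 0.32 in CybbKO tissue (adjusted p = 0.00229). The WT call was lost in 7 of the 12 fits that left out 1 library, with adjusted p from 0.0115 to 0.152 over all 12. It was also lost in the fit with the replicate number as a block (1.35, edgeR adjusted p = 0.0825).

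Mrc1 (ENSMUSG00000026712, chromosome 2, 14229392 to 14332057, plus strand) encodes the mannose receptor CD206, an endocytic lectin of resident macrophages. It was measured at 9.78, 10.3 and 8.67 CPM in WT naive and 11.4, 16.5 and 15.5 CPM in WT ligated libraries. CybbKO libraries had 7.01, 8.07 and 5.49 CPM when naive and 23, 11.1 and 25.2 CPM when ligated. The ligated ranges cleared the naive ones, with CybbKO ligated replicate 2 close to the WT naive level. The change was called in CybbKO tissue (1.53 ± 0.28, edgeR adjusted p = 0.00575) but not in WT (0.59 ± 0.28, adjusted p = 0.256).

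Cd163 (ENSMUSG00000008845, chromosome 6, 124304656 to 124330527, plus strand) encodes the scavenger receptor for haemoglobin bound to haptoglobin and marks resident, perivascular macrophages. Its levels were 3.78, 3.70 and 3.43 CPM in WT naive and 1.37, 0.759 and 2.78 CPM in WT ligated libraries. In CybbKO tissue they were 2.19, 3.75 and 2.35 CPM before and 2.09, 3.34 and 1.67 CPM after ligature. WT ligated libraries all lay below WT naive ones, while the CybbKO groups overlapped. Neither change was called, at -1.15 ± 0.43 in WT (edgeR adjusted p = 0.160) and -0.23 ± 0.42 in CybbKO tissue (adjusted p = 0.768). Over the fits that left out 1 library the WT value ran from -1.77 to -0.81, and the CybbKO value became 0.056 without CybbKO naive replicate 2. Over both genotypes it was -0.69 ± 0.30 (adjusted p = 0.116), and among the fits that left out 1 library it was called in the one without WT ligated replicate 3 (-1.0, adjusted p = 0.0234).

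The number of WT calls varied with the libraries in the fit. The number of members called in WT went from 4 to 0 without WT ligated replicate 2, WT ligated replicate 3 or WT naive replicate 2, to 1 without WT naive replicate 1, to 2 without CybbKO ligated replicate 1 or CybbKO naive replicate 1, to 3 without CybbKO ligated replicate 3, WT naive replicate 3 or CybbKO naive replicate 3, and to 5, with Lyz2 added, when either WT ligated replicate 1 or CybbKO ligated replicate 2 was dropped. Calls over all genes, 481 with every library, also fell, to 110, 120 and 27 in the 3 fits that called 0 members. In the order given above, they were 113 where 1 member was called, 290 and 326 where 2 were, and 354, 737 and 324 where 3 were. Where 5 were called, they were 247 without WT ligated replicate 1 and 900 without CybbKO ligated replicate 2. DESeq2 called 5 members in WT, beside 8.93% of all genes. All 9 directions in WT stayed as they were in each of these fits, with log2 fold changes of 1.2 to 1.66 for Adgre1, 1.37 to 1.84 for Cx3cr1 and 1.25 to 1.59 for Ms4a7. In terms of ranges, 7 members were higher in every WT ligated than in every WT naive library, beside 13.3% of all genes, and 1 (Cd163) was lower, beside 11.6%. In CybbKO tissue 8 were higher, beside 18.5%.

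The ligated libraries differed among themselves along the list. WT ligated replicate 1 was the lowest of its group in 8 of the 9 members, and CybbKO ligated replicate 2 in 6 of 9, being the highest for Ly6c2 and Cd163. These 2 libraries also had the highest sums of oral epithelium markers in their groups, at 101666 and 116808 CPM against 69468 to 88642 CPM in the other 4 ligated libraries, and the lowest neutrophil marker sums, at 1314 and 2460 CPM. The part of the tissue's makeup in the members' spread was not tested. As deviations from the group means over 12 libraries, which share their groups and scaling, Mrc1 and Ms4a7 moved together (r = 0.95), as did Csf1r and Cd68 (r = 0.84), while Ly6c2 had r = -0.38 with Mrc1 and -0.39 with Ms4a7.

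Per length of transcript, Lyz2 was the most abundant member in every group, at 59.5 ± 10.5 FPKM (CPM per kilobase of exon, SD, n = 3) in WT naive and 166 ± 52.6 FPKM in CybbKO ligated tissue. Cd68 followed in all 4 groups, from 6.93 ± 0.884 FPKM in CybbKO naive to 13.5 ± 3.8 FPKM in CybbKO ligated tissue, and then Csf1r, from 2.08 ± 0.354 to 6.36 ± 1.15 FPKM in the same groups, though in ligated tissue of both genotypes it overlapped with Adgre1. Adgre1 and Mrc1 overlapped in naive tissue of both genotypes, and in ligated tissue Ms4a7 and Mrc1 overlapped in both genotypes. Ly6c2 was last in 3 groups, at 0.0596 ± 0.0300 FPKM in WT naive tissue, and in WT ligated tissue it overlapped with Cd163. In CybbKO ligated tissue it reached 0.814 ± 0.419 FPKM, and Cd163 was last with 0.433 ± 0.160 FPKM, though these 2 overlapped.

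The genotypes were compared directly in ligated tissue, where edgeR called 1 of the 15046 genes, Cybb (2.23 ± 0.21, edgeR adjusted p = 0.00420). With so few calls, a lack of calls among the members does not show that the genotypes were alike. All 9 members had higher means in the ligated libraries labelled CybbKO than in WT, where 53.4% of all genes did, but 0 of 9 were called by edgeR and 0 by DESeq2, beside 0.00665% and 0.112% of all genes. The median difference was 0.45, against 0.01 over all genes. Without adjustment 2 members were under 0.05, beside 3.34% of all genes. Csf1r differed by 0.49 ± 0.19 (edgeR unadjusted p = 0.0233, adjusted p = 1.00) and Ly6c2 by 2.28 ± 0.64 (unadjusted p = 0.00393, adjusted p = 1.00). Ly6c2 was the 1 member whose ranges did not overlap, with 1.54 to 3.56 CPM against 0.199 to 0.706 CPM, where 5% of all genes had such higher ranges. Its difference ran from 1.77 to 2.73 over the fits that left out 1 library. Ly6c1 differed by 0.85 ± 0.22 (edgeR unadjusted p = 0.00246, adjusted p = 1.00), also without overlap. Markers of neutrophils, cells that carry some Ly6C, went the same way, with 8 of 8 higher means and sums of 2460 to 11544 CPM against 1314 to 3662 CPM, and their part in the Ly6c2 and Lyz2 differences was not tested.

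The differences of Adgre1 (0.16 ± 0.23) and Cx3cr1 (0.09 ± 0.28) were the smallest, and both turned negative without WT ligated replicate 1, at -0.080 and -0.091. An exact permutation test of 3 libraries against 3 cannot give a p below 0.1, so single genes were not tested that way. The standard errors of the differences between the ligated groups ran from 0.19 for Csf1r to 0.64 for Ly6c2.

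**Figure D2:**
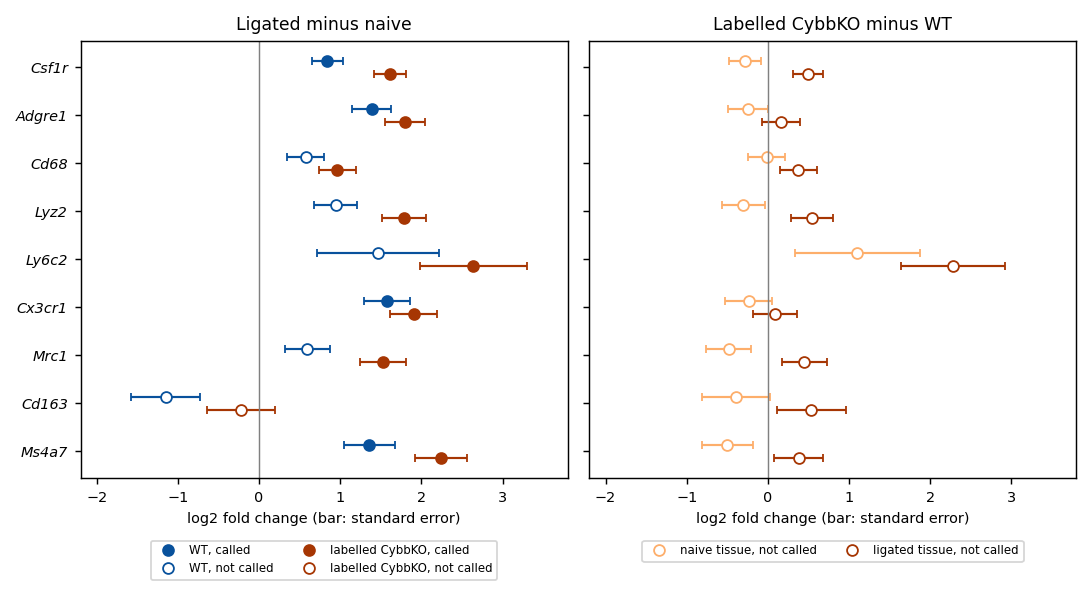
Log2 fold change of each gene with its standard error from the joint edgeR fit, ligated minus naive in WT and labelled CybbKO tissue (left) and labelled CybbKO minus WT in naive and ligated tissue (right), with filled points where the adjusted p was under 0.05. The 4 filled WT points lie between 0.84 and 1.58, the 8 filled CybbKO points between 0.97 and 2.64, and no point in the right panel is filled.

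In naive tissue 8 of the 9 members had lower means in the libraries labelled CybbKO where 50.5% of all genes had higher ones, and 0 were called by edgeR, beside 0.00665% of all genes. Without adjustment 0 members were under 0.05, beside 2.03%, and DESeq2 called 0, beside 0.011%. Mrc1 (-0.48 ± 0.28, edgeR adjusted p = 1.00) and Ms4a7 (-0.50 ± 0.31, adjusted p = 1.00) were lower in every CybbKO than in every WT library, which held for 3.03% of all genes. Ly6c2 was the member with a higher mean (1.10 ± 0.77), and this became -0.067 without CybbKO naive replicate 3, whose 25 reads made up most of its group.

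The signed ligature change was higher in the libraries labelled CybbKO for all 9 members, as for 53.3% of all genes, which for Cd163 means a smaller fall in its mean, but the test of that difference called 0 members and 0% of all genes with edgeR, and 0 members with DESeq2. Without adjustment 3 members were under 0.05, beside 2.27% of all genes. These were Csf1r (0.78 ± 0.27, edgeR unadjusted p = 0.0142), Lyz2 (0.85 ± 0.37, unadjusted p = 0.0424) and Mrc1 (0.93 ± 0.39, unadjusted p = 0.0346), each with an adjusted p of 1.00. Since the effect draws on the naive libraries too, the lower naive and the higher ligated means of the CybbKO libraries both enter it. That 8 members were called in CybbKO tissue and 4 in WT is thus not shown to be a difference between the genotypes.

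Relative to Csf1r in the same library, naive and ligated tissue overlapped for 5 of the 8 other members in WT and for 6 of 8 in CybbKO, with Cd163 outside in both. The log2 ratio of Lyz2 to Csf1r was 2.41 ± 0.14 (SD, n = 3) in WT naive, 2.49 ± 0.22 in WT ligated, 2.41 ± 0.32 in CybbKO naive and 2.53 ± 0.27 in CybbKO ligated tissue. That of Cd163 went from -2.0 ± 0.22 to -4.18 ± 0.81 in WT and from -2.15 ± 0.68 to -4.0 ± 0.76 in CybbKO tissue, without overlap in either genotype. Cd68 also stood lower against Csf1r after ligature, at -0.99 ± 0.09 against -0.73 ± 0.24 in WT and -1.14 ± 0.16 against -0.45 ± 0.07 in CybbKO tissue. Because Csf1r itself rose, lower ratios without overlap were common, in 64.9% of all genes in WT and 84.1% in CybbKO tissue, against 2 of the 8 members in each. The median ratio of all genes without a library at 0 changed by -0.83 in WT and -1.65 in CybbKO tissue. Beside these, the Cd163 ratio changed by -2.18 and -1.86 and the Cd68 ratio by -0.26 and -0.68.

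Ms4a7 moved the other way in WT, from -1.83 ± 0.29 to -1.32 ± 0.22, with no overlap, as for 1.85% of all genes, and in CybbKO tissue its ratios overlapped. Between the ligated groups Ly6c2 was the member whose ratio did not overlap, at -4.14 ± 0.96 in CybbKO against -6.0 ± 0.79 in WT tissue, where 0.931% of all genes had such a higher ratio. These ratios are given without a test.

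**Figure D3:**
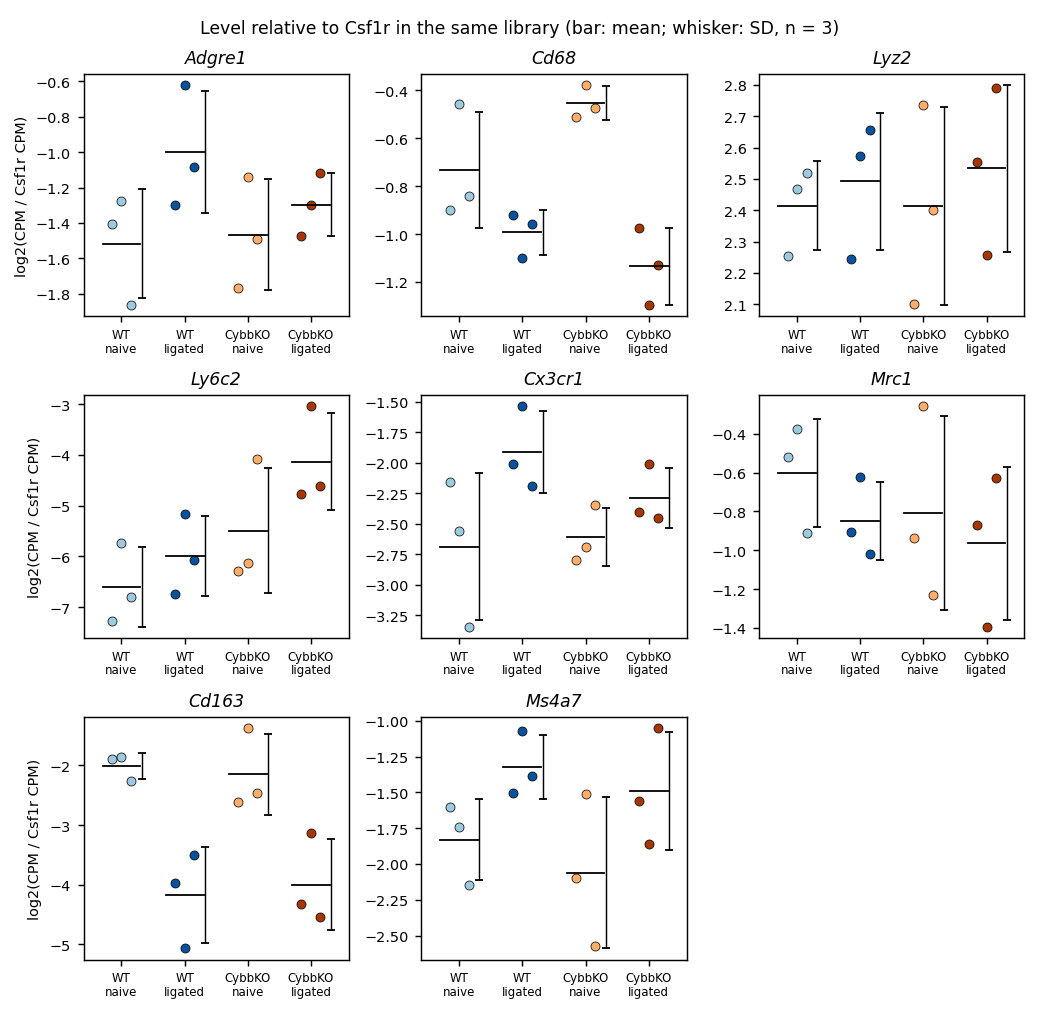
Log2 ratio of the CPM of 8 members to that of Csf1r in the same library, 1 point per library with the mean and SD of 3, for the 4 groups. The Cd163 ratio is lower in every ligated than in every naive library of both genotypes, while the Lyz2 ratios of the 4 groups overlap. Because Csf1r itself rose, such lower ratios were found for 64.9% of all genes in WT and 84.1% in CybbKO tissue.

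The rest of the myeloid programme was followed through lists of other genes. Of 8 CSF1R ligands and myeloid transcription factors, 4 were called higher and 1 lower after ligature with genotypes averaged, a comparison in which 14.7% of all genes were called higher and 9.66% lower. Maf, a transcription factor that macrophages and T cells can express, fell by 0.42 on the log2 scale (edgeR adjusted p = 0.0221) and was also called by DESeq2. It averaged 341 CPM over the 12 libraries, against 22.4 CPM for Csf1r, and which cells its reads came from was not tested. Runx1 was not called (0.37 ± 0.17, adjusted p = 0.144). Of 11 recruited monocyte genes, 8 were called higher and 0 lower, with a median of 1.54. Vcan, which encodes a matrix proteoglycan made by monocytes and by fibroblasts, rose by 1.74 ± 0.21 (adjusted p = 0.000354), and Ccr2, the chemokine receptor that brings monocytes out of the marrow, by 1.36 ± 0.24 (adjusted p = 0.00261). Plac8 was not called (0.34 ± 0.19, adjusted p = 0.217).

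Of 18 resident and scavenging macrophage genes 16 were tested, and 6 were called higher and 2 lower, with a median of 0.40, beside the same 14.7% and 9.66% of all genes. Stab1, a scavenger receptor shared with endothelium, rose by 1.09 ± 0.18 (edgeR adjusted p = 0.00151), whereas Gas6 (-0.14 ± 0.19, adjusted p = 0.633) and Cbr2 (-0.30 ± 0.23, adjusted p = 0.387) were not called. Vsig4 and Marco did not pass the filter, and Marco was at 0 in 4 libraries. Of 10 lipid and repair macrophage genes, 3 were called higher and 2 lower, with a median of -0.04. Fabp5, Arg1, Cd9, Lgals3 and Chil4 of this list averaged 409 to 4350 CPM, against 22.4 CPM for Csf1r. Which cells gave these reads was not tested, so the list's median need not describe macrophages. Fabp5, a fatty acid carrier that epithelium can also express, was not called (0.04 ± 0.12, edgeR adjusted p = 0.853). Between the genotypes in ligated tissue, edgeR and DESeq2 called 0 genes of these 4 lists. All 11 recruited monocyte genes had higher means in the ligated libraries labelled CybbKO, with a median difference of 0.86, and 7 of the 11 had an unadjusted p under 0.05, as did 4 of 16 resident genes, 2 of 8 ligands and factors and 0 of 10 lipid and repair genes, beside 3.34% of all genes.

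**Figure D4:**
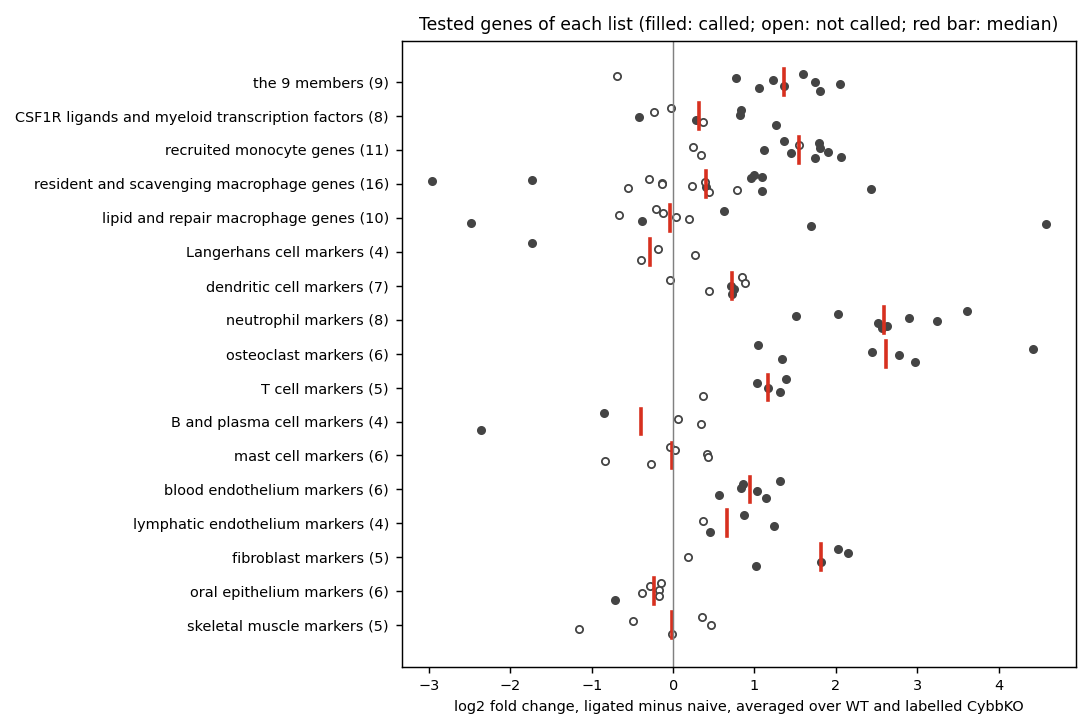
Log2 fold change, ligated minus naive averaged over both genotypes, of every tested gene in the 9 members and in 16 other lists, with filled points where the adjusted p was under 0.05, open points where it was not, and a red bar at the list's median. The members, the recruited monocyte genes and the neutrophil and osteoclast markers lie mostly to the right of 0, while the resident macrophage genes spread to both sides.

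Markers of several other cell types rose with the members. Of 10 neutrophil markers 8 were tested and all 8 were called higher with genotypes averaged, where 14.7% of all genes were, and their summed level ran from 329 to 814 CPM in WT naive, 1314 to 3662 in WT ligated, 797 to 898 in CybbKO naive and 2460 to 11544 CPM in CybbKO ligated libraries. Most of it was S100a8 and S100a9, which epithelium can express too, while Elane was at 0 in 10 libraries and Mpo in 3. Lyz2 is shared with these cells, and their part in its rise was not tested. Of 6 tested osteoclast markers all 6 were called higher, at 60.4 to 115 CPM in naive and 141 to 477 CPM in ligated libraries over both genotypes.

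All 6 blood endothelium markers, Ly6c1 among them, were called higher, with sums of 134 to 167 CPM in naive and 199 to 364 CPM in ligated libraries. Of 5 fibroblast markers 4 were called higher, 3 of 4 tested lymphatic, 4 of 5 T cell and 3 of 7 dendritic cell markers likewise, beside the same 14.7% of all genes. For B and plasma cells 2 of 4 were called lower, for Langerhans cells 1 of 4, and for oral epithelium 1 of 6, where 9.66% of all genes were called lower. Of 6 mast cell markers edgeR called 0 and DESeq2 called 1, where edgeR called 3668 and DESeq2 4520 of all genes. An unadjusted p under 0.05 was found for 2 of the 6, a count whose share over all genes is not given here. Of 5 skeletal muscle markers all 3 counts were 0. Ccl21a of the lymphatic list was at 0 in all 12 libraries. The part of these cells in the members' rise was not tested.

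Some genes across the whole table followed single members closely over the 12 libraries. These differ by group, so a gene that changes with ligature in a member's direction can score high for that reason alone. By Pearson's r of log2 CPM, Csf1r was most like Nnmt and Clec12a (both 0.99), Lyz2 most like Kctd12b and Gusb (both 0.99), and Mrc1 most like Kctd12 (0.99) and Tlr7 (0.98). C3ar1 was the nearest gene to Adgre1 (0.97) and to Ms4a7 (0.98). Cx3cr1 was most like Apobec1 (0.97) and Mpeg1 (0.96), and Cd68 most like Vsir and Col15a1 (both 0.97). The scarcer members had looser partners: Ly6c2 came closest to Sp110 (0.94) and Cd177 (0.93), and Cd163 to Sult1a1 (0.88) and Kcnmb2 (0.87). The mean of the 9 standardized members was most like Gab2, Ctss and Clec12a (0.98 each), Evi2a (0.98) and C1s1 (0.98).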

How the data were processed

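RNA of gingival tissue was measured in 12 libraries, 3 in each of 4 groups assigned from the sample labels. The kit was a stranded mRNA kit per the labels. The authors deposited raw counts of reads per gene, not normalized, and the build is GRCm38. The submitters' processing notes name HTSeq 0.10.0, and the table is named after that tool, while the methods name featureCounts. Symbols, positions and exon lengths came from GENCODE M21, which matched 21939 of 21965 genes. With 27958819 to 42613423 counts per library, the spread between libraries (biological coefficient of variation 0.24) limits most genes more than counting does.

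The members and the lists were chosen with earlier results of these data known. Genes left by filterByExpr were fitted jointly in edgeR 4.0.16 (R 4.3.3) with TMM scaling, 1 mean per group and no covariate, and tested by the quasi-likelihood F test, with Benjamini-Hochberg adjustment over 15046 genes. The standard error is the log2 fold change divided by the square root of F. CPM and FPKM were computed from the TMM-scaled counts. The genes named were the members, Cybb, the copies Ly6c1 and Lyz1, up to 3 of the most abundant genes of each other list, of which some are printed and others are not reported here, and the 2 genes most like each member. The sequence of Csf1r and Adgre1 before their start was not used here. Alternatives were DESeq2 1.42.0, its size factors, scaling by library size only, other filters on low counts, a robust fit, a fit to the compared groups alone, the replicate number as a block, and each library left out in turn. The procedure was tested on simulated data. Figures were drawn with matplotlib 3.10.9 in Python 3.11.15.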

Additional observations from a re-analysis of the deposited data

How the results depend on the processing

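Over 20 alternatives, the 54 log2 fold changes of the members gave 1054 values, of which 1012 kept their direction and their side of the threshold, 30 were no longer called, 4 became called and 8 changed sign. All 36 group means moved by less than their SD when scaled by library size only. The fit of only the groups compared called 2 members in WT instead of 4, and in it fewer libraries set the spread. Over all genes it called 324 in WT instead of 481. Leaving out 1 library gave 0 to 5 members called in WT, 6 to 8 in CybbKO and 8 to 9 with genotypes averaged, and 0 in the other 3 comparisons. Requiring 10 or more counts in all libraries removed Ly6c2, which left 7 members called in CybbKO and with genotypes averaged, beside 1723 and 3182 calls over all genes. Over all genes, WT calls numbered 481, against 1372 with DESeq2, 271 with the replicate block and 27 to 900 without 1 library. For CybbKO they numbered 1954, against 837 to 2949 without 1 library, and for the ligated genotypes 1, against 18 with DESeq2. With genotypes averaged they numbered 3668, against 2531 to 4694 without 1 library.

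The 8 changes of sign all came from leaving out a library, in differences that were not called. They were the ligated genotype difference of Adgre1 (-0.080 without WT ligated replicate 1, range -0.080 to 0.35) and of Cx3cr1 (-0.091 without the same library, range -0.091 to 0.28). In naive tissue they were those of Cd68 (0.068 without WT naive replicate 2, 0.011 without replicate 3 and 0.088 without CybbKO naive replicate 2, range -0.12 to 0.088), Ly6c2 (-0.067 without CybbKO naive replicate 3, range -0.067 to 1.57) and Cx3cr1 (0.030 without WT naive replicate 1, range -0.45 to 0.030). The last was the CybbKO ligature change of Cd163 (0.056 without CybbKO naive replicate 2, range -0.56 to 0.056). The cause was not tested.

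The labels do not say whether libraries of the same replicate number belong together. Over 18 same-numbered pairs, r of the deviations from the group means ran from -0.23 to 0.28, and 2 pairs exceeded 0.1, which does not settle it. With the replicate number as a block, 3 members were called in WT, 8 in CybbKO and 8 with genotypes averaged, and 0 in the other comparisons (Ms4a7 lost its WT call, adjusted p = 0.0825 by edgeR). Over all genes that fit called 271 in WT, 1573 in CybbKO and 2997 with genotypes averaged, and 0 or 1 in the other comparisons. With 3 libraries per group, low counts limit Ly6c2 in particular, which had 3 to 27 reads in the WT libraries.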

Other observations

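Several genes of the myeloid lists that are not among their most abundant also changed with ligature, and those given here were picked out after their values were seen. Spp1, which encodes osteopontin, a secreted protein of macrophages, osteoclasts and bone cells, went from 4.53 ± 1.57 to 91.8 ± 106 CPM in WT and from 3.00 ± 0.461 to 84.9 ± 67.1 CPM in CybbKO libraries (SD, n = 3). Its ligature change with genotypes averaged was 4.58 ± 0.73 (log2, SE; edgeR adjusted p = 0.00136), and the ligated libraries of each genotype spread widely, from 14.3 to 212 CPM in WT and from 9.71 to 138 CPM in CybbKO. Trem2, a lipid-sensing receptor of macrophages, rose by 1.69 ± 0.35 (adjusted p = 0.00531). Msr1, the class A scavenger receptor, rose by 2.44 ± 0.31 (adjusted p = 0.000416), from 1.34 ± 0.219 to 3.89 ± 1.40 CPM in WT and from 0.748 ± 0.125 to 7.58 ± 4.24 CPM in CybbKO.

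Cd209f and Cd209d, lectins of the DC-SIGN family, and Retnla, which encodes a secreted protein of alternatively activated macrophages, were lower after ligature, as the Cd163 means were. Cd209f and Cd209d were the 2 genes of the resident list called lower, beside 9.66% of all genes. In that list 6 genes were called higher, beside 14.7%, C1qb among them (1.09 ± 0.15, edgeR adjusted p = 0.000584). Cd209f changed by -2.96 ± 0.49 (edgeR adjusted p = 0.00160), Cd209d by -1.74 ± 0.43 (adjusted p = 0.0124) and Retnla by -2.48 ± 0.81 (adjusted p = 0.0440), all at low levels: the Cd209f means were 0.982 and 0.808 CPM in naive and 0.147 and 0.0846 CPM in ligated tissue of WT and CybbKO. Within single genotypes edgeR called neither Cd209d (adjusted p = 0.0808 in WT and 0.166 in CybbKO) nor Retnla (adjusted p = 0.468 and 0.0860). With genotypes averaged, other genes rose. Spi1, which encodes PU.1, rose by 1.26 ± 0.27 (adjusted p = 0.00596), and Csf1, the ligand of the Csf1r product, by 0.83 ± 0.17 (adjusted p = 0.00586). Il34, which encodes the other ligand of that receptor, changed by -0.24 and was not called.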
